A study of Mus musculus with 12 samples.

Results

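Chemokine receptors are G protein-coupled receptors with which leukocytes follow gradients of chemokines into tissues. The 8 genes described here, grouped as inflammatory chemokine receptors, are *Ccr2*, *Ccr4*, *Ccr6*, *Ccr8*, *Cxcr3*, *Cxcr4*, *Cxcr5* and *Cxcr6*, chosen by name, of 24439 genes in the tables. The name is that of the group and does not describe each gene. In T helper cells several of these receptors are known as markers of effector states. CXCR3 is typical of Th1 cells, CCR4 and CCR8 of Th2 cells and regulatory T cells, CCR6 of Th17 cells and CXCR5 of follicular helper cells. CCR2 and CXCR6 are found on effector and memory cells, and CXCR4, the receptor of CXCL12, is found on most T cells.

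RNA-Seq had been performed on 12 libraries of mouse T-blast cells, in 4 groups of 3, to ask what IL-2 contributes to gene expression before and after restimulation. CD4 T cells were isolated with magnetic beads from the spleens of C57BL/6 C42 mice, which carry a fragment of the human IL3/CSF2 locus as a transgene in all groups, and were transformed into dividing blasts with 2 µg/ml concanavalin A for 40 h. TB IL-2 cells were then kept in 50 U/ml IL-2, and TB IL-2nil cells were kept in IL-2 first and then without it for 16 h. The methods give 30 h in IL-2 before its withdrawal, whereas the labels give 2 days. TB+ IL-2 and TB+ IL-2nil cells received in addition PMA at 20 ng/ml and calcium ionophore at 2 µM (PMA/I) over 2 h, agents that stand in for T cell receptor signaling. The cells were not polarized to a helper subset, the age of the mice was not given in the sources used here, and nothing states that libraries of a group came from separate animals, so that the P-values measure only the spread between these libraries.

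In 2 libraries the sample label did not match the cells' state. *Il2*, the cytokine gene that PMA/I induces in T cells, was at 1368 FPKM in the library labelled TB IL-2nil replicate 3, against 0 to 1.18 FPKM in the other libraries labelled as not stimulated. It was at 0.290 FPKM in the library labelled TB+ IL-2 replicate 3, against 1095 to 2374 FPKM in the other libraries labelled as stimulated. The authors' own list of values per library holds each of these 2 libraries under the label of the other. Every one of 1381 genes matched within 0.1% once the TPM values were quantile normalized. The 2 libraries were therefore placed in each other's group, and the values by label are given beside most of the differences described for the 7 genes tested. The depth of the libraries relative to each other was estimated from ratios between libraries of the low FPKM values of the same genes. This estimate was 0.41 to 1.25, with TB IL-2nil replicate 2 the shallowest. In all groups the T cell markers *Cd3d*, *Cd3e*, *Cd3g* and *Cd4* summed to 906 to 1798 TPM. The CD8 T cell markers summed to 6.91 to 31.9 TPM and the B cell markers to 2.36 to 29.6 TPM. The 3 markers of natural killer cells summed to at most 0.303 TPM, and 3 of 6 markers of monocytes and macrophages, *Lyz2*, *Csf1r* and *Cd14*, did not exceed 1 TPM in a library, while *Cd68*, *Itgam* and *Adgre1* reached 3.36, 1.98 and 1.25 TPM.

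The genes lie apart from each other, but 5 of the 8 are on chromosome 9 (mm9, GENCODE M1 gene models). These are *Cxcr5* at chr9:44319871-44334504, *Ccr4* at chr9:114399434-114405662, *Ccr8* at chr9:120001251-120004024, *Cxcr6* at chr9:123715595-123720872 and *Ccr2* at chr9:124016689-124028296. *Cxcr5* and *Ccr4* are on the minus strand and the other three on the plus strand. *Cxcr4* is at chr1:130484776-130488870 and *Cxcr3* at chrX:98926874-98929608, both on the minus strand, and *Ccr6* is at chr17:8429077-8449992 on the plus strand. *Cxcr6* lies within *Fyco1* (chr9:123698628-123761020, minus strand), in sequence that is not exonic in *Fyco1*. The libraries were directional, but whether the quantification used strand is not given in the sources used here. In *Ccr2*, 1.75% of the 50-base stretches of its transcripts also occur in another gene, and in *Ccr4* 0.356%, while the other 6 genes have none.

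The sequences just upstream of *Ccr8* and *Cxcr6* are shown because these genes had the largest rise, and a fall in both conditions, with PMA/I below. Each is the 250 bases before the start of the gene in RefSeq (table of build GRCm38.p6), matched without a difference to 1 place in mm9, at chr9:120001001-120001250 and chr9:123715345-123715594, both on the plus strand. Capitals mark a match to any of 4 short motifs, searched on both strands, which are the STAT motif TTCNNNGAA, the AP-1 motif TGANTCA, the NFAT core GGAAAA and the GATA motif AGATAA. None of the 4 motifs overlapped another in these windows.
Ccr8: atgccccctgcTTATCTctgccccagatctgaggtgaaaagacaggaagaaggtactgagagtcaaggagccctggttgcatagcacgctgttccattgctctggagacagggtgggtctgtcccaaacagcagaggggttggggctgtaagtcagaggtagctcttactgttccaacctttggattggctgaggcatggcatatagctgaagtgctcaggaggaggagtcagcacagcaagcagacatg
Cxcr6: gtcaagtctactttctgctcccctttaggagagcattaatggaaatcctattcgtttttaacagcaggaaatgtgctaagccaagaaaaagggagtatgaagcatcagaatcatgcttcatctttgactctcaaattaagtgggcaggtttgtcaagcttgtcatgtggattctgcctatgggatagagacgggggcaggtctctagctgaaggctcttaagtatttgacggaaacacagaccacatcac

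The only match in these windows was 1 GATA motif in *Ccr8*, on the minus strand at positions -239 to -234 from the start. Of the 7 receptor genes with an entry, *Ccr2* had 1 NFAT core and 1 GATA motif, *Ccr4* 1 AP-1 motif and *Ccr6* 2 STAT motifs, and *Cxcr3*, *Cxcr4* and *Cxcr6* had none of the 4. Among 27025 promoters of the same length, 7.18% hold the STAT motif, 6.87% the AP-1 motif, 20.6% the NFAT core and 10.3% the GATA motif. *Cxcr5* had no entry.

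Levels are TPM values, which are corrected for transcript length, after each library was scaled to a common upper quartile. *Cxcr3*, *Ccr2*, *Ccr8*, *Ccr4*, *Cxcr6* and *Cxcr4* were read in every library, at 3.40 to 368 TPM. *Cxcr5* stayed at 0.0539 to 2.9998 TPM, and *Ccr6* did not exceed 0.891 TPM. In TB IL-2 the 5 highest, *Ccr2*, *Ccr4*, *Cxcr3*, *Ccr8* and *Cxcr6*, had means from 29.3 to 48.8 TPM, and each overlapped its neighbour in this order. In TB IL-2nil, *Ccr2* at 124 ± 96.9 and *Cxcr3* at 114 ± 67.0 TPM (SD, n = 3) led and also overlapped. After PMA/I, *Cxcr3* stood above the receptor next by mean without overlap in TB+ IL-2 (171 ± 21.0 TPM against 64.6 ± 24.3 for *Ccr8*) and in TB+ IL-2nil (305 ± 75.2 TPM against 153 ± 36.4 for *Ccr8*). In TB+ IL-2nil it overlapped *Ccr2*, which in replicate 1 was at 287 TPM where *Cxcr3* was at 222 TPM. The 8 genes together summed to 222 ± 46.4 TPM in TB IL-2, 347 ± 74.8 in TB IL-2nil, 346 ± 28.6 in TB+ IL-2 and 669 ± 49.9 in TB+ IL-2nil (SD, n = 3). These sums depend on the scaling. The upper quartile before it ranged from 20.3 TPM (TB+ IL-2nil replicate 1) to 48.9 TPM (TB IL-2nil replicate 1). In TPM before this scaling the sums of TB IL-2nil and TB+ IL-2nil lie closer together and overlap.

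**Figure D1:**
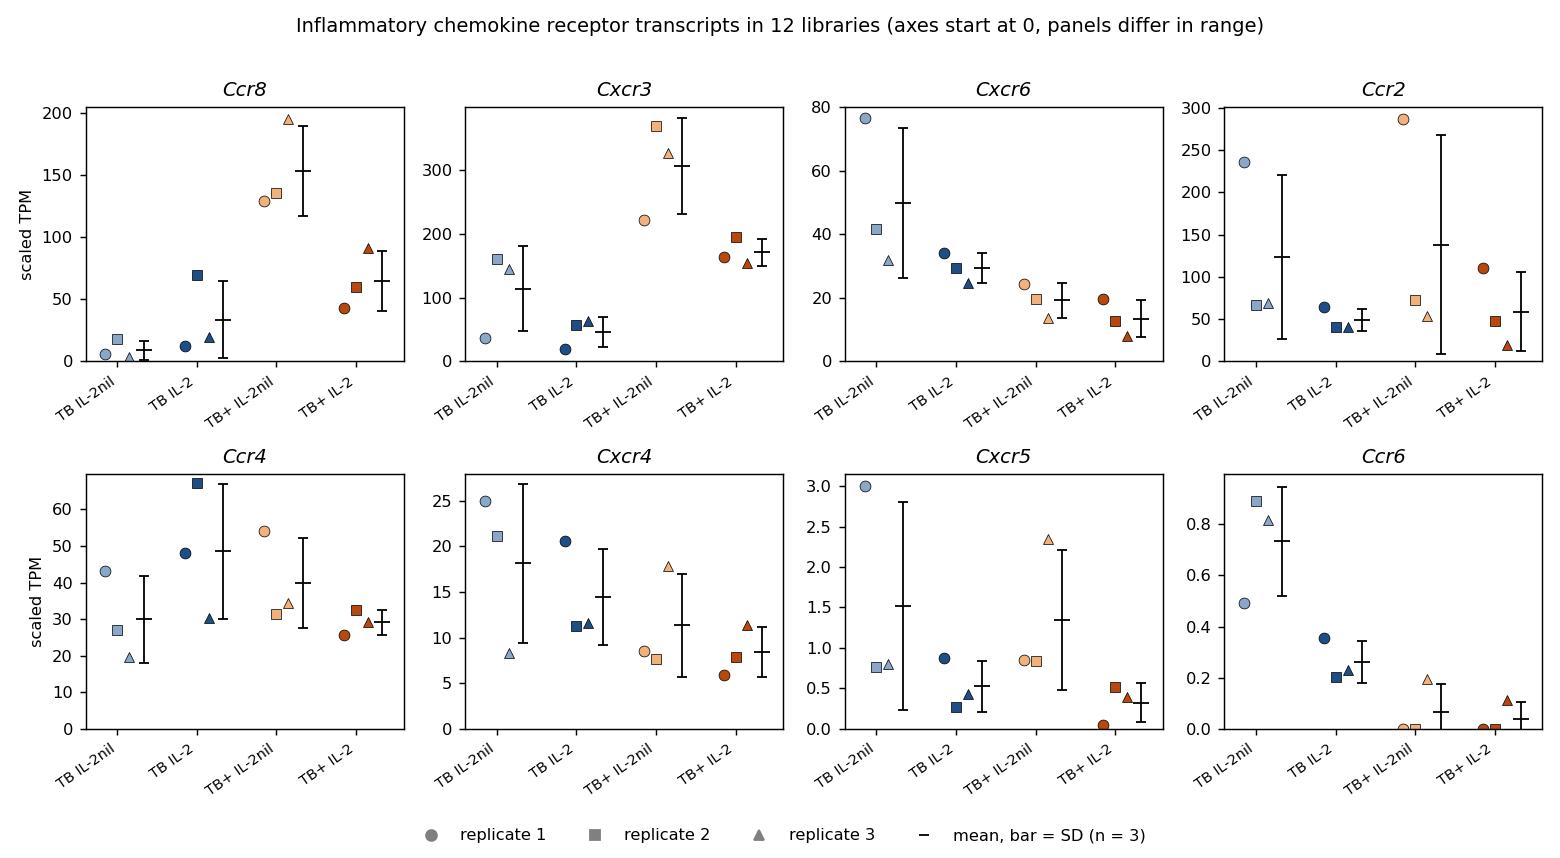
Scaled TPM (vertical axes, from 0, with a different range in each panel) of the 8 receptor genes in the 12 libraries, by group, with the mean and SD of 3 libraries beside the points (bars that reach below 0 end at the axis). The 3 *Ccr8* values of TB+ IL-2nil, at 129 to 195 TPM, lie above all others of the gene, whereas *Cxcr5* and *Ccr6* stay at or under 2.9998 TPM everywhere.

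Genes were tested where a library exceeded 1 TPM, which 7 of the 8 did and *Ccr6* did not. A gene passed at an adjusted P under 0.05 (limma, Benjamini-Hochberg adjustment over 12442 genes), and differences are in log2(TPM + 1). With PMA/I in the absence of IL-2, 3 of the 7 passed, namely *Ccr8* and *Cxcr3* as higher and *Cxcr6* as lower, where 61.2% of all genes tested passed. With PMA/I in the presence of IL-2, 2 of the 7 passed, *Cxcr3* as higher and *Cxcr6* as lower, against 35.1% of all genes. Neither count is a larger share than that of all genes. The IL-2 comparison before PMA/I gave 0 of 7 against 39.6% of all genes (1 of 7 at an unadjusted P under 0.05), the IL-2 comparison after PMA/I 0 of 7 against 21.3% (1 of 7), and the interaction, which is the PMA/I effect with IL-2 minus that without, 0 of 7 against 4.23% (2 of 7). The median difference of the 7 genes with PMA/I was 0.03 without IL-2 and -0.20 with IL-2, beside -0.38 and -0.22 over all genes. For IL-2 it was -0.63 before and -0.78 after PMA/I, beside -0.13 and -0.04, and for the interaction it was -0.12 beside 0.16. With the libraries taken by label, 0 of the 7 passed in each of the 5 comparisons, where 0.121%, 0.498%, 5.38%, 0.217% and 0% of all genes passed for IL-2 before PMA/I, PMA/I with IL-2, PMA/I without IL-2, IL-2 after PMA/I and the interaction. The size of the interaction is the same by label, as the 2 exchanged libraries enter it with the same sign, and only its spread differs.

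Libraries of the same replicate number deviated together, so the number was also entered as a block. The PMA/I calls were then for the same genes, *Cxcr3* and *Cxcr6* with IL-2 (46.3% of all genes passed) and *Ccr8*, *Cxcr3* and *Cxcr6* without it (69.1%). The IL-2 comparison before PMA/I gained 4 of the 7, *Ccr8* as higher and *Ccr2*, *Cxcr3* and *Cxcr6* as lower in TB IL-2, where 50.8% of all genes passed. After PMA/I it gained *Ccr2* and *Cxcr6*, both lower in TB+ IL-2, against 33.6% of all genes. The interaction gained *Ccr8*, against 11.9% of all genes.

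**Figure D2:**
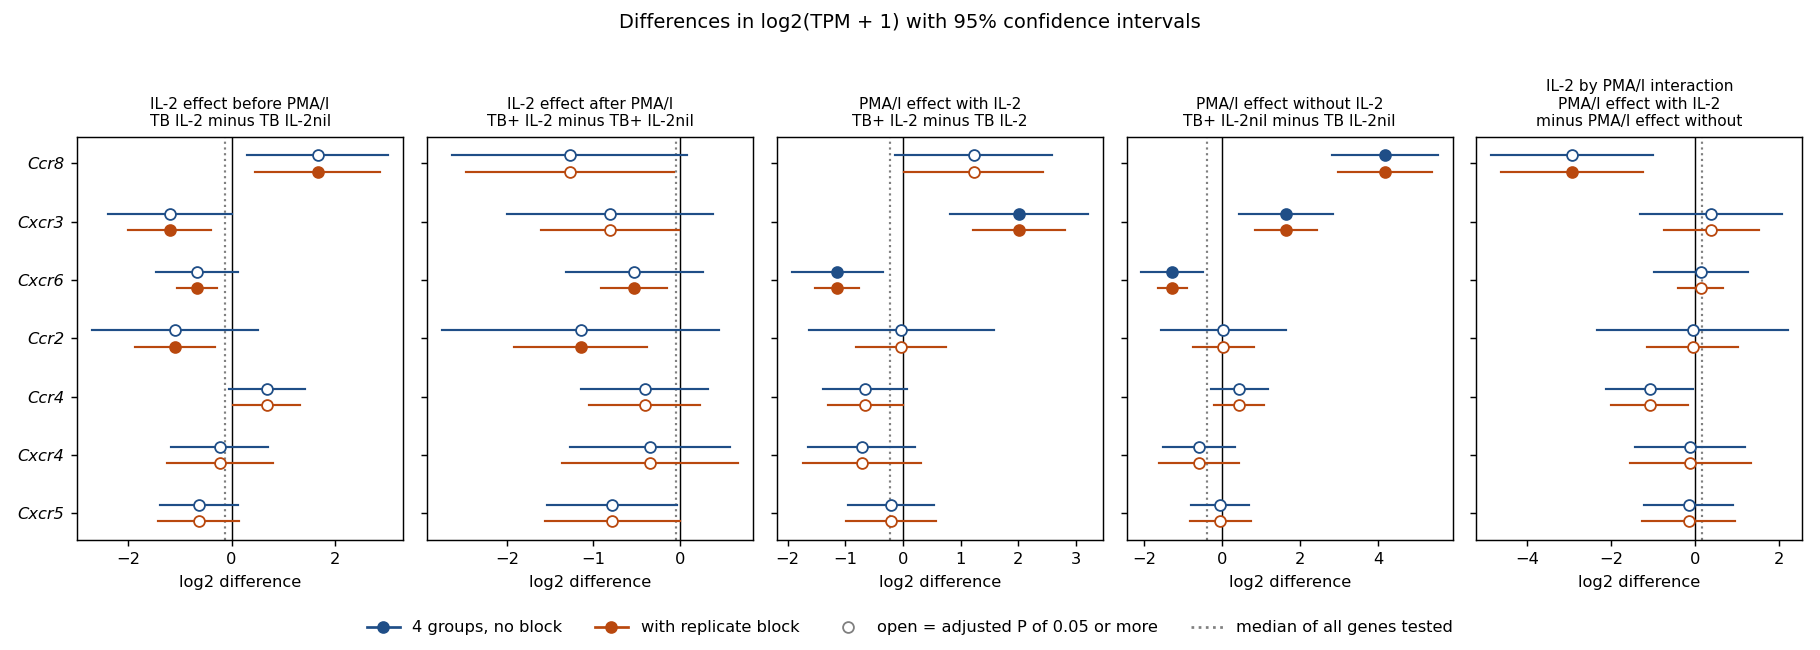
Differences in log2(TPM + 1) on the horizontal axes for 7 receptor genes in 5 comparisons, without (blue) and with (orange) the replicate number as a block, with 95% confidence intervals. Filled points have an adjusted P under 0.05, and the dotted line is the median of all genes. *Ccr8* without IL-2, at 4.17, is the largest difference, and the filled points for IL-2 alone are found only with the block.

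*Ccr8* encodes the receptor of CCL1 and is known from Th2 cells and regulatory T cells. It was at 6.27, 17.8 and 3.40 TPM in replicates 1, 2 and 3 of TB IL-2nil and at 129, 136 and 195 TPM in TB+ IL-2nil. All 3 stimulated libraries were above all 3 unstimulated ones, as in 21.8% of all genes. The lowest of the 3 stimulated values was above every other *Ccr8* value in the 12 libraries. The rise was 4.17 (SE 0.62, 18.0-fold on this scale, adjusted P = 0.000172, limma), and 4.55 above the median of all genes. It passed in 23 of 23 alternatives that keep this placement, at 3.59 to 4.75. By label, with the library labelled TB IL-2nil replicate 3, at 91.0 TPM, counted as unstimulated, the difference was 2.70 (adjusted P = 0.126). With both libraries left out it was 3.69 (adjusted P = 0.00134).

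With IL-2 the response of *Ccr8* was smaller in all 3 numbers. It was at 12.2, 69.4 and 19.6 TPM in TB IL-2 and at 43.2, 59.7 and 91.0 TPM in TB+ IL-2. Replicate 2 was already high without PMA/I, and the groups overlapped. The difference was 1.23 (SE 0.62, adjusted P = 0.147) and -0.23 (adjusted P = 0.955) by label, and it depended on single libraries, being 1.93 (adjusted P = 0.0210) without TB IL-2 replicate 2 and 0.72 (adjusted P = 0.429) without TB IL-2 replicate 1. With both misplaced libraries left out it was 0.95 (adjusted P = 0.292). The interaction was -2.94 (SE 0.87, adjusted P = 0.0830). Within replicate numbers 1, 2 and 3 it was -2.42, -3.07 and -3.32, and with the block its adjusted P was 0.0389. By label the interaction was also -2.94, because the 2 exchanged libraries enter it with the same sign. Only its spread changed by label (SE 1.55, adjusted P = 0.914). With both libraries left out the difference was -2.74 (adjusted P = 0.175).

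The interaction did not pass with all 12 libraries and no block. In the values read, the order of *Ccr8* between IL-2 and IL-2nil differed before and after PMA/I. Before PMA/I it was higher with IL-2 in 3 of 3 numbers, with overlapping groups and a difference of 1.66 (SE 0.62, adjusted P = 0.0519, or 0.0276 with the block). This passed in 8 of 23 alternatives, among them without TB IL-2 replicate 1 (2.17, adjusted P = 0.0213) and without TB IL-2nil replicate 2 (2.24, adjusted P = 0.0191). It was 0.97 (adjusted P = 0.197) without TB IL-2 replicate 2 and 1.19 (adjusted P = 0.185) with both misplaced libraries left out. After PMA/I it was lower with IL-2 in 3 of 3 numbers, and all TB+ IL-2 values were below all TB+ IL-2nil values (18.3% of all genes did this), a difference of -1.27 (SE 0.62, adjusted P = 0.168, or 0.0971 with the block). By label the differences were 0.20 (adjusted P = 0.969) and -2.74 (adjusted P = 0.229). The 3 markers of regulatory T cells, *Foxp3*, *Ikzf2* and *Lrrc32*, summed to 31.4 to 68.7 TPM in TB IL-2 and to 4.66 to 17.1 TPM in the other groups, and TB IL-2 replicate 2 was the highest in this sum as in *Ccr8*. The sum was mostly *Lrrc32*, at 30.1 to 67.1 TPM in TB IL-2, and *Foxp3*, which defines these cells, did not exceed 1.68 TPM. Within TB IL-2, replicate 1 and not 2 was the highest in *Foxp3* (1.58 against 0.731 TPM) and *Ikzf2* (2.73 against 0.896 TPM). *Ikzf2* was higher in TB IL-2nil, at 3.42 to 4.27 TPM. The part of regulatory T cells in the *Ccr8* levels was not tested, and in bulk RNA fewer cells of a type and less RNA per cell cannot be told apart.

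*Cxcr3* encodes the receptor of CXCL9, CXCL10 and CXCL11 and is a known target of the Th1 factor T-bet. It was at 19.4, 56.7 and 63.2 TPM in TB IL-2 and at 164, 194 and 154 TPM in TB+ IL-2. All stimulated values were above all unstimulated ones, as in 16.6% of all genes. The rise was 2.02 (SE 0.54, 4.05-fold, adjusted P = 0.0147), was seen in 3 of 3 numbers, and was 2.23 above the median of all genes. It passed in 22 of 23 alternatives, the exception being without TB IL-2 replicate 1, the lowest library, where it was 1.49 (adjusted P = 0.0578). By label it was 1.99 (adjusted P = 0.154), again without overlap.

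Without IL-2 it was at 37.2, 160.0 and 145 TPM before and at 222, 368 and 326 TPM after PMA/I. These groups did not overlap either, as in 21.8% of all genes. The rise was 1.63 (SE 0.54, 3.11-fold, adjusted P = 0.0220) and 2.01 above the median of all genes. It passed in 18 of 23 alternatives. It did not pass in TPM without further scaling (1.08, adjusted P = 0.0576), after quantile normalization (1.28, adjusted P = 0.0934), or without TB IL-2nil replicate 1 (0.96, adjusted P = 0.0768), TB+ IL-2nil replicate 2 (1.48, adjusted P = 0.0691) or TB+ IL-2nil replicate 3 (1.57, adjusted P = 0.0545). By label it was 1.61 (adjusted P = 0.0987). The interaction was 0.38 (SE 0.77, 95% interval -1.31 to 2.07), so the size of the response with and without IL-2 was not shown to differ. By label the interaction was also 0.38 (SE 0.82, adjusted P = 0.932).

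*Cxcr3* was lower with IL-2 in 3 of 3 numbers at either time. Before PMA/I the difference was -1.19 (SE 0.54, adjusted P = 0.103, or 0.0204 with the block), and the groups overlapped through the low TB IL-2nil replicate 1, without which it was -1.86 (adjusted P = 0.00935). It was -0.67 (adjusted P = 0.330) without TB IL-2 replicate 1 and -0.90 (adjusted P = 0.300) with both misplaced libraries left out. After PMA/I it was -0.81 (SE 0.54, adjusted P = 0.314, or 0.110 with the block), and the TB+ IL-2 values were all below the TB+ IL-2nil values (18.3% of all genes did this). By label the differences were -1.22 (adjusted P = 0.453) and -0.84 (adjusted P = 0.488). The summed T cell markers also moved with IL-2, from 1615 to 1798 TPM in TB IL-2nil against 1068 to 1097 in TB IL-2, and from 1160 to 1409 TPM in TB+ IL-2nil against 906 to 1015 in TB+ IL-2. Of these 4 markers 3 passed as lower with IL-2 before PMA/I and 2 after it (22.3% and 8.4% of all genes). The part of these markers in the IL-2 differences of *Cxcr3*, *Cxcr6* and *Ccr2* was not tested.

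*Cxcr6* encodes the receptor of the membrane-bound chemokine CXCL16. In replicates 1, 2 and 3 it was at 34.1, 29.3 and 24.6 TPM in TB IL-2 and at 19.6, 12.7 and 8.04 TPM in TB+ IL-2. In TB IL-2nil it was at 76.7, 41.6 and 31.8 TPM, and in TB+ IL-2nil at 24.5, 19.5 and 13.6 TPM. Replicate 1 was the highest and replicate 3 the lowest in all 4 groups, and the stimulated groups lay below the unstimulated ones without overlap, as 35.1% of all genes did with IL-2 and 42.3% without it. The difference was -1.14 with IL-2 (SE 0.36, adjusted P = 0.0305, or 0.000746 with the block) and -1.28 without it (SE 0.36, adjusted P = 0.00975, or 0.000137 with the block), in 3 of 3 numbers each. Relative to the median of all genes these are -0.92 and -0.90.

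The fall with IL-2 passed in 14 of 23 alternatives. It did not pass with both misplaced libraries left out (-0.84, adjusted P = 0.0839), without the library labelled TB IL-2nil replicate 3 alone (-0.84, adjusted P = 0.106), TB IL-2 replicate 1 (-1.02, adjusted P = 0.0947), TB IL-2 replicate 2 (-1.13, adjusted P = 0.0658) or TB+ IL-2 replicate 2 (-1.14, adjusted P = 0.0739), without a filter (-0.996, adjusted P = 0.0965), or under the other 3 scalings (-0.90 to -1.22, adjusted P = 0.0583 to 0.0792). The fall without IL-2 passed in 22 of 23, the exception being median-ratio scaling (-0.89, adjusted P = 0.0543). By label the differences were -0.52 (adjusted P = 0.775) and -0.66 (adjusted P = 0.487). *Fyco1*, the gene on the opposite strand around *Cxcr6*, which encodes an adaptor of autophagosome transport, moved in the same way, by -1.50 with IL-2 (adjusted P = 0.000807) and -2.11 without it (adjusted P = 2.59e-05), and it was lower with IL-2 before PMA/I, at -1.22 (adjusted P = 0.00242). After PMA/I its IL-2 difference was -0.60 (adjusted P = 0.0921), and its part in the *Cxcr6* values was not tested.

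IL-2 minus IL-2nil for *Cxcr6* was -0.67 before PMA/I (adjusted P = 0.163, or 0.00964 with the block) and -0.53 after it (adjusted P = 0.323, or 0.0384 with the block). The direction was that of 3 of 3 numbers in either case, but the groups overlapped. Leaving out 1 library moved them to -0.31 (adjusted P = 0.513, without TB IL-2nil replicate 1) before PMA/I. After PMA/I they went to -0.23 (adjusted P = 0.739, without the library labelled TB IL-2nil replicate 3), -0.34 (adjusted P = 0.620, without TB+ IL-2nil replicate 1) and -0.82 (adjusted P = 0.147, without TB+ IL-2 replicate 1). With both misplaced libraries left out they were -0.94 (adjusted P = 0.0564) and -0.23 (adjusted P = 0.712). By label the differences were -0.04 (adjusted P = 0.992) and 0.09 (adjusted P = 0.963).

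*Ccr2* encodes the receptor of CCL2 and CCL7, which draws monocytes and effector T cells to inflamed tissue. In replicates 1, 2 and 3 it was at 64.1, 41.1 and 41.3 TPM in TB IL-2 and at 235, 66.3 and 68.9 TPM in TB IL-2nil. All TB IL-2 values were below all TB IL-2nil values (30.4% of all genes did this). After PMA/I it was at 109.9, 47.8 and 19.0 TPM in TB+ IL-2 and at 287, 73.2 and 54.2 TPM in TB+ IL-2nil, which overlapped. It was lower with IL-2 in 3 of 3 numbers before PMA/I, at -1.09 (SE 0.73, adjusted P = 0.256), and in 3 of 3 after it, at -1.15 (SE 0.73, adjusted P = 0.288). With the block these gave adjusted P = 0.0259 and 0.0300, and by label -0.49 (adjusted P = 0.865) and -0.55 (adjusted P = 0.777). Before PMA/I the difference was -0.49 (adjusted P = 0.641) without TB IL-2nil replicate 1 and -1.38 (adjusted P = 0.182) with both misplaced libraries left out. After PMA/I it was -0.42 (adjusted P = 0.733) without TB+ IL-2nil replicate 1, -0.52 (adjusted P = 0.699) without the library labelled TB IL-2nil replicate 3, -1.76 (adjusted P = 0.125) without TB+ IL-2 replicate 1 and -0.52 (adjusted P = 0.702) with both left out. The PMA/I difference was -0.03 with IL-2 (95% interval -1.64 to 1.57) and 0.03 without it (95% interval -1.58 to 1.63), and the sign depended on the scaling and on single libraries. By label these were 0.57 (adjusted P = 0.813) and 0.63 (adjusted P = 0.603). The 6 markers of monocytes and macrophages, which also express *Ccr2*, summed to 1.74 to 3.84 TPM in TB IL-2, 3.12 to 4.88 in TB IL-2nil, 2.08 to 3.16 in TB+ IL-2 and 2.62 to 3.22 in TB+ IL-2nil, and their part in the *Ccr2* levels was not tested.

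Of the sum of squares of the *Ccr2* values in log2, 57.9% lay between replicate numbers, 30.2% between IL-2 and IL-2nil and 0.00011% between PMA/I and none. For *Ccr8*, *Cxcr3* and *Cxcr6* the largest share was that of PMA/I, at 63.1%, 56.1% and 59.1%. Replicate 1 held the highest *Ccr2* and the highest *Cxcr6* value in 4 of 4 groups, and did not hold the highest *Cxcr3* value in any. The CD8 T cell markers *Cd8a* and *Cd8b1* summed to 22.0 to 31.9 TPM in the 4 libraries of replicate 1 and to 6.91 to 17.7 TPM in the other 8, and their part in the *Ccr2* and *Cxcr6* levels was not tested.

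**Figure D3:**
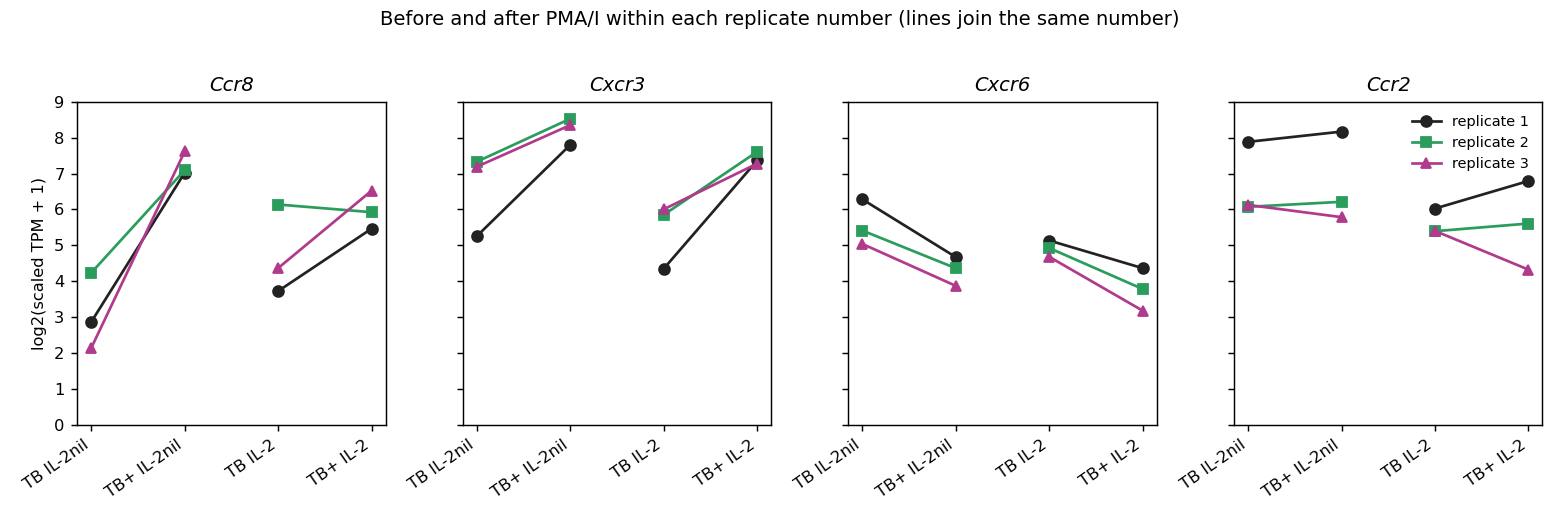
Log2(scaled TPM + 1) of *Ccr8*, *Cxcr3*, *Cxcr6* and *Ccr2* (vertical axis) before and after PMA/I, without IL-2 on the left and with IL-2 on the right of each panel, with lines that join libraries of the same replicate number. The lines of *Ccr8* rise by 2.86 to 5.48 without IL-2 and by -0.21 to 2.16 with it, those of *Cxcr6* all fall, and *Ccr2* of replicate 1 lies above the other two in all 4 groups.

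*Ccr4* encodes the receptor of CCL17 and CCL22. It was at 48.2, 67.2 and 30.3 TPM in TB IL-2, 43.1, 27.05 and 19.7 TPM in TB IL-2nil, 25.7, 32.5 and 29.3 TPM in TB+ IL-2 and 54.0, 31.4 and 34.5 TPM in TB+ IL-2nil. These groups overlapped in each of the 4 comparisons. With PMA/I the differences were -0.65 with IL-2 (adjusted P = 0.153), negative in 3 of 3 numbers, and 0.43 without it (adjusted P = 0.276), positive in 3 of 3. The interaction was -1.09 (SE 0.47, adjusted P = 0.197, or 0.103 with the block). By label it was the same difference with SE 0.49 (adjusted P = 0.914). For IL-2 before PMA/I the difference was 0.68 (SE 0.33, adjusted P = 0.127), which passed without TB IL-2 replicate 3 (0.97, adjusted P = 0.0489) and without TB IL-2nil replicate 1 (0.97, adjusted P = 0.0460). It was 0.41 (adjusted P = 0.389) without TB IL-2 replicate 2, 0.42 (adjusted P = 0.368) without the library labelled TB+ IL-2 replicate 3 and 0.42 (adjusted P = 0.402) with both misplaced libraries left out. After PMA/I it was -0.41 (adjusted P = 0.413). By label the PMA/I differences were -0.83 with IL-2 (adjusted P = 0.314) and 0.25 without it (adjusted P = 0.619), and the IL-2 differences 0.50 before (adjusted P = 0.620) and -0.59 after PMA/I (adjusted P = 0.421).

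*Cxcr4*, whose ligand CXCL12 keeps cells in bone marrow and lymphoid tissue, was at 11.3 to 20.6 TPM in TB IL-2, 8.36 to 25.0 in TB IL-2nil, 5.95 to 11.3 in TB+ IL-2 and 7.66 to 17.8 in TB+ IL-2nil. These groups overlapped in each of the 4 comparisons. Its differences with PMA/I were -0.71 with IL-2 (SE 0.42, adjusted P = 0.216) and -0.60 without it (SE 0.42, adjusted P = 0.240). The latter was -1.05 (adjusted P = 0.0363) with both misplaced libraries left out, and also -1.05 (adjusted P = 0.0379) without the library labelled TB+ IL-2 replicate 3 alone, but -0.31 (adjusted P = 0.571) without TB IL-2nil replicate 1 and -0.39 (adjusted P = 0.507) without TB+ IL-2nil replicate 2, and -0.95 (adjusted P = 0.0805) without TB+ IL-2nil replicate 3. With IL-2 it was -0.44 (adjusted P = 0.507) without TB IL-2 replicate 1. For IL-2 they were -0.23 before and -0.35 after PMA/I (adjusted P = 0.696 and 0.602). By label the PMA/I differences were -0.84 with IL-2 (adjusted P = 0.362), where the groups then did not overlap, and -0.73 without it (adjusted P = 0.205), and the IL-2 differences -0.36 and -0.48 (adjusted P = 0.759 and 0.555).

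*Cxcr5* and *Ccr6*, the receptors of CXCL13 and CCL20, were close to the limit of what was read. *Cxcr5* was at 0.265 to 0.878 TPM in TB IL-2, 0.762 to 2.9998 in TB IL-2nil, 0.0539 to 0.522 in TB+ IL-2 and 0.834 to 2.34 in TB+ IL-2nil. The values with IL-2 were below those without it in 3 of 3 numbers at either time, and without overlap after PMA/I (18.3% of all genes did this). The differences were -0.63 (SE 0.34, adjusted P = 0.162) and -0.78 (SE 0.34, adjusted P = 0.127) and did not pass with the block either (adjusted P = 0.156 and 0.114). They were -0.24 (adjusted P = 0.558) without TB IL-2nil replicate 1 and -0.50 (adjusted P = 0.338) without TB+ IL-2nil replicate 3, and by label -0.51 (adjusted P = 0.675) and -0.66 (adjusted P = 0.443). The PMA/I differences of *Cxcr5* were -0.20 with IL-2 (adjusted P = 0.680) and -0.05 without it (adjusted P = 0.907). By label these were -0.08 (adjusted P = 0.960) and 0.07 (adjusted P = 0.916). *Ccr6* was at 0.203 to 0.355 TPM in TB IL-2, 0.490 to 0.891 in TB IL-2nil, 0 to 0.114 in TB+ IL-2 and 0 to 0.194 in TB+ IL-2nil, and was listed at 0 in 2 libraries of each stimulated group. In a fit of 17338 genes without the filter, *Ccr6* was lower with IL-2 before PMA/I, at -0.42 (adjusted P = 0.0186), and with PMA/I without IL-2, at -0.66 (adjusted P = 0.00102), where 27.3% and 42.4% of all genes passed. The 4 markers of B cells, which express both receptors, summed to 23.2 to 29.6 TPM in TB IL-2nil, 5.94 to 10.4 in TB IL-2, 5.49 to 12.7 in TB+ IL-2nil and 2.36 to 3.31 in TB+ IL-2, and their part in these values was not tested.

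Of 10 other chemokine receptors, 7 were tested. With PMA/I, 2 of the 7 rose and 1 fell with IL-2 (11.8% of all genes rose and 23.3% fell), and 1 rose and 3 fell without it (20.1% rose and 41.1% fell). *Ccr1*, a receptor of CCL3, rose by 2.50 with IL-2 (adjusted P = 1.81e-05) and by 3.53 without it (adjusted P = 8.80e-07). It reached only 0.487 TPM in TB IL-2 and 0.293 TPM in TB IL-2nil, and so entered the tests through stimulated libraries alone. *Ccr3*, the eotaxin receptor, rose by 2.21 with IL-2 (adjusted P = 0.0198). *Ccr7*, which guides naive T cells into lymph nodes, fell, at -3.28 with IL-2 and -3.86 without it (adjusted P = 0.000371 and 3.75e-05), and was lower with IL-2 before PMA/I, at -1.70 (adjusted P = 0.0130). Of 5 atypical receptors, which take up chemokines without signaling through G proteins, 3 were tested, and 1 rose with IL-2 and 1 fell without it. For IL-2 against IL-2nil, 3 of the 7 other receptors were lower and 0 higher before PMA/I, and 2 lower and 0 higher after it. Of all genes 22.3% were lower and 17.3% higher before, and 8.4% lower and 12.9% higher after PMA/I. At either time 0 of the 3 atypical receptors passed.

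The 14 ligands of the 8 receptors include 7 that were tested, of which 4 rose with PMA/I with IL-2 and 4 without, and 0 fell, where 11.8% and 20.1% of all genes rose. The other 7 did not exceed 1 TPM in a library. *Ccl7* and *Ccl20* entered only through stimulated libraries and could not fall with PMA/I, so the counts are not a test of the ligands as a set. *Ccl1*, the ligand of CCR8, was at 0 to 3.70 TPM in TB IL-2 and TB IL-2nil. It was at 1593 to 2361 TPM in TB+ IL-2 and at 586 to 1548 TPM in TB+ IL-2nil, rises of 9.94 and 8.61 (adjusted P = 5.18e-07 and 8.62e-07). *Ccl7*, a ligand of CCR2, was listed at 0 in all 6 unstimulated libraries, at 1.88 to 5.15 TPM in TB+ IL-2 and at 0 to 0.271 TPM in TB+ IL-2nil, where it was higher by 1.84 with IL-2 (adjusted P = 0.000536). *Cxcl10*, a ligand of CXCR3, rose by 1.57 with IL-2 and by 2.06 without it (adjusted P = 0.000639 and 3.23e-05). *Ccl20*, the ligand of CCR6, was listed at 0 in all 6 unstimulated libraries and rose to 0.669 to 3.42 TPM in TB+ IL-2 and 0.787 to 2.71 TPM in TB+ IL-2nil (adjusted P = 0.00839 and 0.00364). *Cxcl16*, the ligand of CXCR6, stayed at 0.327 to 2.31 TPM, with differences of 0.22 and 0.46 (adjusted P = 0.555 and 0.167). For IL-2 against IL-2nil, 1 ligand was higher before PMA/I and 2 after it (17.3% and 12.9% of all genes), and 0 were lower.

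**Figure D4:**
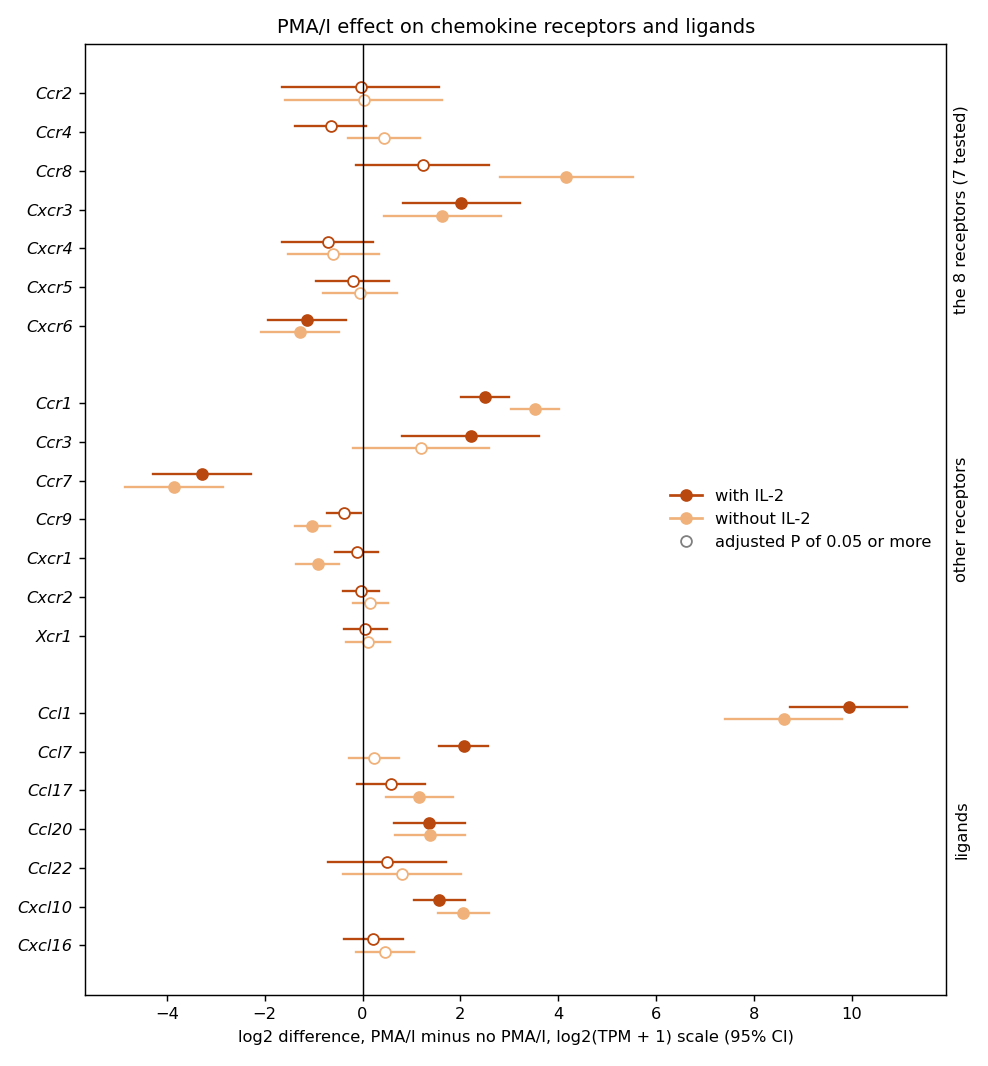
PMA/I minus no PMA/I in log2(TPM + 1) on the horizontal axis, with 95% confidence intervals, for 7 of the 8 receptors, 7 other receptors and 7 ligands, with IL-2 (dark) and without it (light). Filled points have an adjusted P under 0.05. *Ccl1*, at 9.94 and 8.61, lies beyond all receptors, of which *Ccr8* without IL-2, at 4.17, rose most and *Ccr7* fell most.

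Of 24 genes of receptor signaling, 4 rose and 16 fell with PMA/I without IL-2, and 3 rose and 6 fell with IL-2, where 20.1% of all genes rose and 41.1% fell, and 11.8% rose and 23.3% fell. With IL-2 against IL-2nil, 1 of the 24 was higher and 5 lower before PMA/I, and 3 were higher and 2 lower after it, against 17.3% and 22.3% of all genes before and 12.9% and 8.4% after. *Pik3cg*, the catalytic subunit of PI3K gamma, fell, at -2.91 without and -2.18 with IL-2 (adjusted P = 0.000256 and 0.00415), and *Arrb2*, the beta-arrestin that binds active receptors, at -2.11 and -1.75 (adjusted P = 0.000113 and 0.00119). *Pik3r5*, a regulatory subunit of PI3K gamma, and *Plcb3*, a phospholipase C, fell without IL-2, at -1.69 and -1.87 (adjusted P = 0.000680 and 0.000519). Of 12 lineage factors, 4 rose and 2 fell with PMA/I in either condition, and with IL-2 against IL-2nil 1 was higher and 4 lower before PMA/I, and 0 higher and 2 lower after it, against the same shares of all genes. *Tbx21*, which encodes T-bet, rose by 3.36 with IL-2 and by 4.70 without it (adjusted P = 0.000291 and 9.92e-06), and *Gata3*, the Th2 factor, by 2.22 without it (adjusted P = 2.72e-06). *Rora*, a factor of Th17 cells, rose by 1.59 with IL-2 (adjusted P = 0.00687). *Runx3*, which acts with T-bet, fell, at -1.96 with and -2.01 without IL-2 (adjusted P = 0.00134 and 0.000396), and *Klf2*, which maintains homing receptors of naive cells, fell, at -2.02 and -3.48 (adjusted P = 0.000610 and 5.95e-06). *Bcl6*, the factor of follicular helper cells, was lower with IL-2 before PMA/I, at -2.24 (adjusted P = 0.0181). Of the 26 differences over 3-fold among these other genes, 26 passed with both misplaced libraries left out and 26 with the block, and 1, *Gata3*, passed by label. The 26 were chosen because they passed in these same libraries, so these refits are not independent tests.

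The genes whose course over the 12 libraries was closest to that of a receptor were sought among 7226 genes with a mean of at least 10 TPM, by the mean absolute difference of centred log2 values. The closest to *Ccr8* was *Chsy1*, at a mean difference of 0.53 where *Ccr8* itself deviated by 1.495 on average, followed by *Pprc1* at 0.57. The closest to *Cxcr3* was *Gimap5*, at 0.26 with *Cxcr3* deviating by 1.03, and then *Tbkbp1* at 0.39. For *Cxcr6* it was *Taz* at 0.22 and *Zbtb7a* at 0.23, and for *Ccr2* *Ank* at 0.38 and the class I gene *H2-K1* at 0.43. *Ccr4* was closest to *Rcn1* at 0.18 and *2310033P09Rik* at 0.21, *Cxcr4* to *Zscan29* at 0.25 and *Zbtb18* at 0.25, and *Cxcr5* to *Xlr4a* and *Zranb1* at 0.26 each. These are descriptions over the same 12 libraries and 1 scaling.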

How the data were processed

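RNA-Seq libraries were made by the authors from rRNA-depleted total RNA with a directional kit. Reads were trimmed with Trimmomatic 0.32 and aligned to mm9 with HISAT2 2.1.0, and StringTie 1.3.3 was run on RefSeq models. The deposited values are FPKM of 24439 genes, summing to 193815 to 420487 per library. The methods name TPM, so that the tests were planned for TPM. They also name upper-quartile normalization, which was used here, whereas the authors' list of values matched TPM after quantile normalization. No read counts are contained in the files, and intervals for counting error were therefore not given.

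Values were converted here to TPM by setting every library's total to 1000000. Only genes above 1 TPM in 1 library or more entered the analysis, after which the upper quartile (75th percentile) of all libraries was set to its mean over them. On log2(TPM + 1), limma 3.58.1 under R 4.3.3 was fitted to the 4 groups together, leaving 8 residual degrees of freedom, without block or trend. The alternatives were the block, the placement by label, other pseudocounts, filters and scalings, a trend, the 2 groups alone and leaving out libraries. Fold changes on this scale come out too small where levels are low. The code was tested on simulated data. Python 3.11.15 with pandas 2.3.3 was used for the rest.

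The 2 libraries were placed in each other's group, as the study lists their values. So placed, libraries of 1 replicate number correlated in their deviations from the group means (18 of 18 correlations over 0.1, at 0.101 to 0.531). By label this was 11 of 18 (-0.777 to 0.453). What a number shares is not given in the sources used here.

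The receptors and the lists were chosen with earlier results of these data known. Named were the 8 receptors and *Il2*, for other lists up to 4 genes per comparison over 3-fold and with an adjusted P under 0.05, and the 2 genes closest in course to each receptor. *Cxcl10* with IL-2, *Ccl20*, *Cxcl16* and *Fyco1* were named after their values were seen. The list of other receptors is not complete, as 1 gene is not reported here.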

Additional observations from a re-analysis of the deposited data

How the results depend on the processing

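The scaling moved the median of all genes for PMA/I without IL-2 from -0.38 to -0.78 in TPM without further scaling and to -0.08 with the median-ratio, and the share of higher among all called genes with it, from 32.8% to 17.6% and 49.8% (43.5% after quantile normalization). For PMA/I with IL-2 this share went from 33.6% to 53.2% with the median-ratio and 46.4% after quantile normalization, and for IL-2 after PMA/I from 60.5% to 96.1% in TPM without further scaling, and for the interaction from 37.1% to 22.8% with the median-ratio. Of all genes, 4929, 4372, 7614, 2644 and 526 passed for IL-2 before PMA/I, PMA/I with IL-2, PMA/I without IL-2, IL-2 after PMA/I and the interaction. By label this became 15, 62, 669, 27 and 0 (413 at an unadjusted P under 0.05 for the last). In TPM without further scaling it became 2650, 2434, 1486 and 1 in all but PMA/I without IL-2. With the 2 groups alone it became 1503 for IL-2 after PMA/I, with the block 4186 for that and 1478 for the interaction, with both misplaced libraries left out 1200 and 4, and with pseudocounts of 0.1 and 5 the interaction gave 241 and 842. With the replicate number as a block, which pairs libraries, the number of receptors that passed became 4 for IL-2 before PMA/I, 2 for IL-2 after PMA/I and 1 for the interaction. By label it became 0 for PMA/I with and without IL-2, with the block too. For IL-2 before PMA/I it became 1 without a filter (*Ccr6*) and 1 (*Ccr8*) with over 1 TPM in at least 3 libraries, without further scaling, with the median-ratio, after quantile normalization and with a trend. For PMA/I with IL-2 it became 1 with the 2 misplaced libraries left out, without a filter, and under each of the 3 other scalings. Leaving out 1 library gave 0 to 2 for IL-2 before PMA/I, 0 to 2 for PMA/I with IL-2, 2 to 4 for PMA/I without IL-2, 0 to 0 for IL-2 after PMA/I and 0 to 1 for the interaction. Of 448 single differences under the other alternatives 26 changed sign, and 0 of these was of a call. Many of the 448 could not change sign. The block, the trend and the 2 groups alone leave every difference as it was, and the placement by label leaves the interactions as they were. The count is therefore no measure of stability. *Ccr2* with PMA/I and IL-2 became 0.57 by label (0.57 with the block), 0.60 with the 2 libraries left out, 0.12 without a filter and 0.21 with the median-ratio. *Ccr2* with PMA/I without IL-2 became -0.26 with the 2 libraries left out, -0.52 without further scaling and -0.41 after quantile normalization, and its interaction 0.86, 0.41 and 0.29. *Ccr8* with PMA/I and IL-2 became -0.23 by label, *Ccr4* with PMA/I without IL-2 -0.11 without further scaling, and *Cxcr6* for IL-2 after PMA/I 0.093 by label. *Cxcr5* with PMA/I without IL-2 became 0.070 by label, 0.055 without a filter, 0.16 with the median-ratio and 0.40 after quantile normalization. *Cxcr4* for IL-2 after PMA/I became 0.0010 without further scaling, the interaction of *Cxcr4* 0.13 with the 2 libraries left out and 0.31 without further scaling, that of *Cxcr5* 0.073 without further scaling and that of *Cxcr6* -0.013 with the median-ratio. With 1 library left out, the ranges that crossed 0 were -0.64 to 0.59 and -0.70 to 0.62 for *Ccr2* with PMA/I with and without IL-2, -0.34 to 0.33 for *Cxcr5* with PMA/I without IL-2, -0.68 to 0.055 and -0.56 to 0.0041 for *Cxcr4* with IL-2 before and after PMA/I, and for the interaction -0.67 to 0.66 (*Ccr2*), -0.14 to 1.05 (*Cxcr3*), -0.39 to 0.34 (*Cxcr4*), -0.53 to 0.14 (*Cxcr5*) and -0.21 to 0.44 (*Cxcr6*). The causes were not tested.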
